A study of Mus musculus with 6 samples.

Results

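The genes described here are 10 that control passage through the G1 phase of the cell cycle: the D cyclins Ccnd1, Ccnd2 and Ccnd3, the kinases Cdk4 and Cdk6, the retinoblastoma family Rb1, Rbl1 and Rbl2, and the inhibitors Cdkn1b and Cdkn2c. They were taken by gene name from a table of transcript levels, and the transcripts of each were summed. All 10 were found, as 30 of 23242 transcripts and 10 of 11808 genes. The cells were primary vascular smooth muscle cells, which make up the contractile layer of arteries, from male C57BL/6 mice (12 mice of 6 weeks, as the label is read here), kept in a serum-containing growth medium. In 3 libraries the cells carried a scrambled control siRNA (siScrambled, labelled WT), and in 3 an siRNA against Sirt7 (siSirt7, labelled as a knockdown of this sirtuin deacylase), each at 20 nM and profiled at 48 h. No sample was left untransfected, so the controls share the transfection. Whether the 3 libraries of a group stem from separate cell isolations is not said in the labels, and each p-value reflects no more than the variation among these libraries, some or all of which could be technical.

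The retinoblastoma protein and its relatives p107 (Rbl1) and p130 (Rbl2) hold the E2F transcription factors in check. Growth factors induce D cyclins, which bind CDK4 or CDK6. The active kinase phosphorylates the retinoblastoma family, E2F is released and the genes of DNA synthesis are switched on. The INK4 proteins, p18 (Cdkn2c) among them, block CDK4 and CDK6, while p27 (Cdkn1b) blocks CDK2 complexes and also binds cyclin D complexes. Smooth muscle cells of the healthy artery rarely divide, and they re-enter this cycle in culture and after injury.

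Levels are FPKM, fragments counted per transcript length and library size, a unit that can be set side by side between genes. The table gives no counts, so the depth behind a value is unknown. FPKM summed to 321944 to 333683 per library. Sirt7 (chromosome 11) was at 4.35, 3.56 and 4.48 FPKM in the siScrambled libraries and at 0.959, 1.25 and 0.360 FPKM in the siSirt7 libraries, a 4.82-fold lower mean (limma adjusted p = 0.00388, and 0.0697 for its most abundant transcript alone). The 2 groups lay apart on the first principal component, which held 46.7% of the variance. The 7 smooth muscle markers summed to 2777 to 2816 FPKM with siScrambled and to 2437 to 2645 FPKM with siSirt7, led by Acta2 and Tagln. By the test described below, 3 of the 7 were called lower, as were 12.5% of all tested genes. By its unadjusted p under 0.05, 5 of the 7 were lower and 0 higher, against 18.9% of all tested genes in each direction. Of 7 endothelial markers, 0 were among the genes analysed here. Of the 7 macrophage markers 4 had values, with sums of 18.8 to 21.8 and 20.7 to 23.6 FPKM, mostly from Lyz2, and 0 of the 2 tested were called (0 also at an unadjusted p under 0.05). The 6 fibroblast markers summed to 74.4 to 90.1 and 82.7 to 85.3 FPKM, and the 6 mesothelial markers, led by Upk1b, to 225.2 to 228.4 and 174.3 to 187.2 FPKM. In each list 2 genes were called lower, of 4 tested fibroblast and 5 tested mesothelial markers. The smooth muscle and mesothelial sums were thus both lower in each siSirt7 library. Their part in the results below was not tested.

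Of the 10 genes, 5 fell in the siSirt7 libraries and 0 rose: Ccnd1, Ccnd2, Cdk6, Rbl1 and Cdkn2c. The call was a Benjamini-Hochberg adjusted p under 0.05 from limma's moderated test on log2(FPKM + 1), adjusted over all 10854 genes whose mean reached 1 FPKM, a level that each of the 10 reached. Of those genes, 12.5% were called lower, 12.7% higher and 25.2% in either direction. The 10 genes were chosen with earlier results of these data known, so their counts beside these shares are a description only. At an unadjusted p under 0.05, 6 of the 10 were lower and 0 higher, against 18.9% of all tested genes in each direction. The 6 were also those whose groups did not overlap, each lower with siSirt7, as were 22.1% of all tested genes, of which 43.9% did not overlap in either direction. The median log2 fold change was -0.22 over the 10 genes, -0.17 without Ccnd1, and -0.005 over all tested genes. A negative log2 fold change means less RNA with siSirt7, and since 1 FPKM was added before taking logs, the changes of low genes come out too small. In such bulk RNA, fewer cycling cells and less RNA per cell cannot be told apart.

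**Figure D1:**
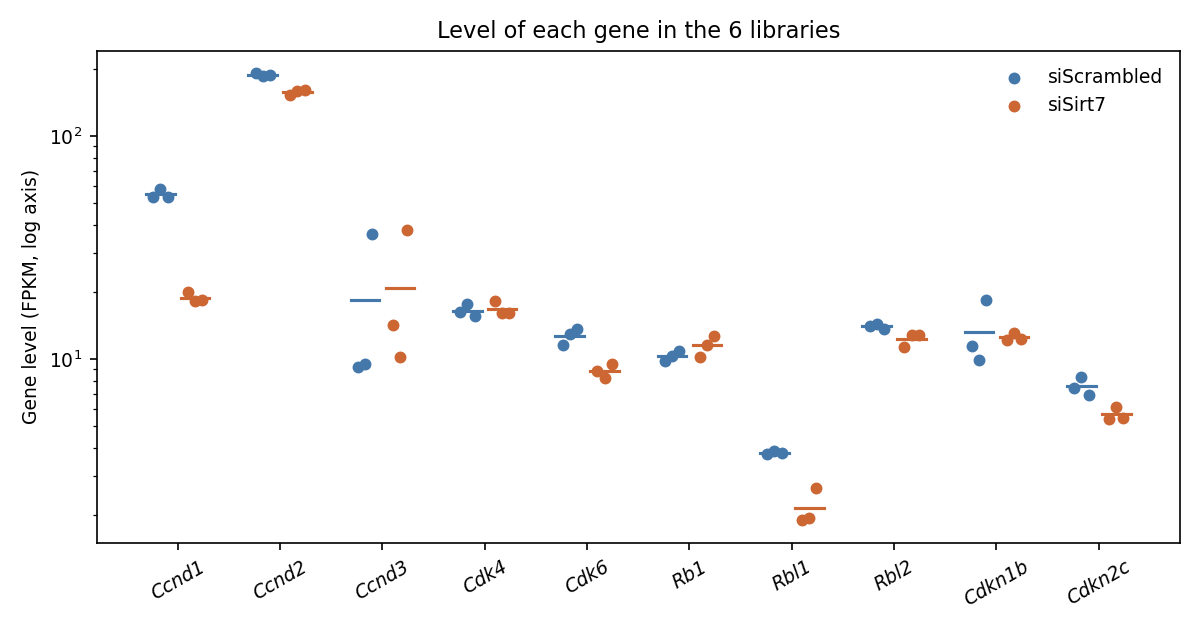
Level of each of the 10 genes in every library, in FPKM on a log axis, with 3 siScrambled libraries (blue) and 3 siSirt7 libraries (orange); horizontal lines are group means. Ccnd1 lies between 53.1 and 57.9 with siScrambled and between 18.2 and 19.9 with siSirt7, while Ccnd3 has 1 high library in each group.

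Cyclin D1, encoded by Ccnd1 (ENSMUSG00000070348.5, chromosome 7, 144929931 to 144939925, minus strand, GRCm38), is the D cyclin best known as a target of growth factor signals. Its levels were 53.4, 57.9 and 53.1 FPKM in the siScrambled libraries and 19.9, 18.2 and 18.3 FPKM in the siSirt7 libraries. All siSirt7 values were far below all control values, and the distance between the groups was many times the spread within either. The mean fell 2.91-fold, from 54.8 ± 2.70 to 18.8 ± 0.930 FPKM (SD, n = 3), which was -1.49 as a log2 fold change (95% interval -1.63 to -1.36, SE 0.06, adjusted p = 7.61e-05 by limma). Only 3 of the 10854 tested genes had a lower fitted log2 fold change. This rank depends on the 1 FPKM added before taking logs, which shrinks the changes of low genes. Sirt7, with a 4.82-fold lower mean, had nearly the same fitted value of -1.49. With 0.1 FPKM added instead, Sirt7 was at -2.27 and Ccnd1 at -1.54. A single listed transcript of 5 exons, Ccnd1-201, carried the whole value, so no division between listed isoforms enters it. Whether reads were shared with unlisted transcripts is not known.

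Cyclin D2, encoded by Ccnd2 (chromosome 6, 127125162 to 127152193, minus strand), was the most abundant of the 10 genes in every library. It was at 191.6, 186.4 and 188.4 FPKM with siScrambled and at 153.2, 159.2 and 160.7 FPKM with siSirt7. The groups did not overlap, but the change was small: the mean fell 1.20-fold, from 188.8 ± 2.64 to 157.7 ± 3.96 FPKM (log2 fold change -0.26, 95% interval -0.33 to -0.18, adjusted p = 0.00248). Ccnd1 and Ccnd2 together summed to 243.6 ± 1.86 FPKM with siScrambled and to 176.5 ± 3.06 FPKM with siSirt7 (SD, n = 3). The full-length transcript Ccnd2-201 held 95.4% of the gene's signal and was itself called lower among single transcripts (log2 fold change -0.25, adjusted p = 0.0113), a test in which 4.31% of 17414 transcripts were called lower and 8.99% in either direction. Of the 21 tested transcripts of the 10 genes, 5 were called lower, 1 from each gene that fell, and 0 higher.

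For Ccnd3, which encodes cyclin D3 (chromosome 17, 47505051 to 47599691, plus strand), the values did not allow a comparison of any precision. Its sum was 9.25, 9.52 and 36.3 FPKM with siScrambled and 14.3, 10.2 and 37.7 FPKM with siSirt7. The library numbered 3 stood above the others in both groups, and the groups overlapped. The log2 fold change was 0.24 with a 95% interval from -1.37 to 1.85 (adjusted p = 0.825), which holds large changes of either sign. The 2 high values came from different transcripts. In siScrambled replicate 3, Ccnd3-205 was at 33.0 FPKM and made up 90.9% of the gene, whereas in siSirt7 replicate 3 it was at 0.856 FPKM and Ccnd3-202 was at 30.3 FPKM, or 80.2%. In the other 4 libraries Ccnd3-202 was between 0 and 0.0615 FPKM and Ccnd3-205 between 3.76 and 11.4 FPKM. Both transcripts have a coding part of 876 bases, and they differ in where they start. Whether the RNA or its assignment to overlapping transcripts moved was not tested. Without siSirt7 replicate 3 the log2 fold change was -0.28, without siScrambled replicate 3 it was 0.85, and without both it was 0.33 (adjusted p = 0.784, 0.326 and 0.277).

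The starts of Ccnd3-202 and Ccnd3-205 lie far apart, and the windows from 250 bases before to 50 bases after the matching RefSeq start sites (GRCm38.p6) are shown because the high value moved from one to the other. Capitals mark the GC box GGGCGG on either strand, a word found in 35.7% of all 32851 promoter windows of this length.
Ccnd3 upstream start, chr17:47504801-47505100, plus strand: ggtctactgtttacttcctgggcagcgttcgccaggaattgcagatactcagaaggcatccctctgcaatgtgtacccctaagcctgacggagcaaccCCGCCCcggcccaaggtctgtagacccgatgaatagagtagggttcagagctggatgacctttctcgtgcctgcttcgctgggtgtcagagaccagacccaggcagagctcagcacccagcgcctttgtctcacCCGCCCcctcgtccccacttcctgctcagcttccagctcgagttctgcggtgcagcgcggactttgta
Ccnd3 downstream start, chr17:47593217-47593516, plus strand: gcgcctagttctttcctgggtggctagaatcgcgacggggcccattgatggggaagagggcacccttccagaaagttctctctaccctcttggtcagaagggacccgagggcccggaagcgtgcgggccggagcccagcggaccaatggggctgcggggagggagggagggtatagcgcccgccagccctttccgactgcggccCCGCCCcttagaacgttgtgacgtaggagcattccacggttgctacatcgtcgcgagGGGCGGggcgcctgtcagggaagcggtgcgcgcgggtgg
Each window holds 2 GC boxes. The listed start of Ccnd3-202 coincides with the upstream RefSeq site, and that of Ccnd3-205 lies 3 bases from the downstream one.

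**Figure D2:**
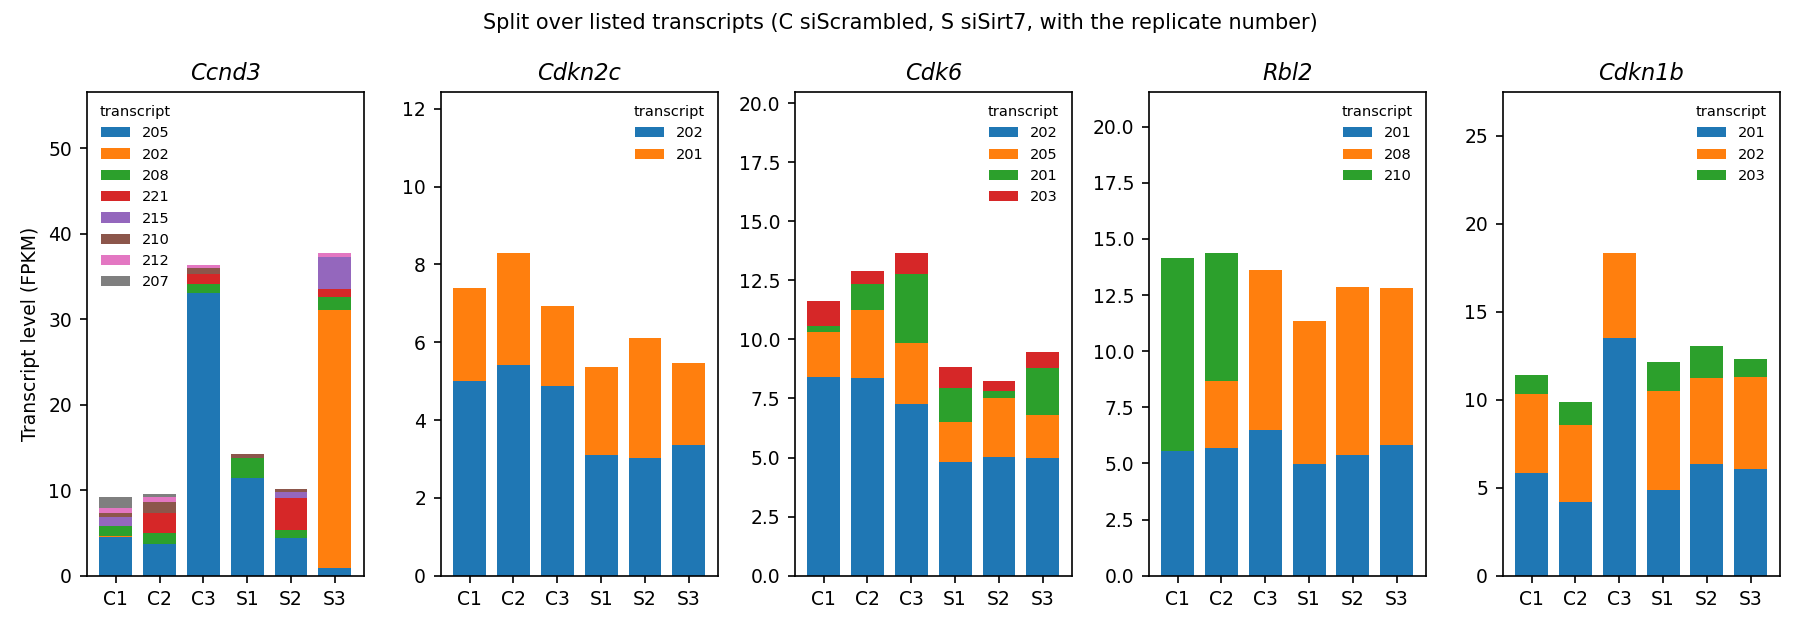
Level in FPKM of each listed transcript, stacked per library, for the 5 genes with several transcripts named in the text (C is siScrambled and S is siSirt7, with the replicate number). The high Ccnd3 bars of C3 and S3 are made of different transcripts, and the Cdkn2c-202 segment is shorter in all siSirt7 libraries.

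As a family, the D cyclins summed to 254.3, 253.8 and 277.8 FPKM with siScrambled and to 187.4, 187.6 and 216.8 FPKM with siSirt7. The higher total in each group belonged to the library with the high Ccnd3 value. Ccnd1 made up 21.0%, 22.8% and 19.1% of this total with siScrambled and 10.6%, 9.72% and 8.45% with siSirt7. Counted against Ccnd2 alone, its share of the pair went from 22.5 ± 1.05% to 10.7 ± 0.71% (SD, n = 3). Ccnd2 held the largest share in every library, between 67.8% and 84.8%. These sums and shares combine genes already described and were given no test.

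Among the kinases, Cdk6 fell and Cdk4 was not called. CDK4 and CDK6 are the catalytic partners of the D cyclins. Cdk6 (chromosome 5, 3341485 to 3531008, plus strand) was at 11.6, 12.9 and 13.6 FPKM with siScrambled and at 8.83, 8.22 and 9.46 FPKM with siSirt7. All siSirt7 values were below the lowest control value, and the mean fell 1.44-fold, from 12.7 ± 1.03 to 8.84 ± 0.620 FPKM (log2 fold change -0.48, 95% interval -0.68 to -0.28, limma adjusted p = 0.00833). Of its transcripts Cdk6-202 was called, the one with a 3' UTR of 10217 bases, at 8.40, 8.35 and 7.28 FPKM against 4.83, 5.03 and 4.98 FPKM (adjusted p = 0.0151 among single transcripts). Cdk6-201 has the same coding length of 978 bases and a 3' UTR of 1434 bases. It ranged from 0.242 to 2.89 FPKM with siScrambled and from 0.274 to 1.98 FPKM with siSirt7, with overlap (adjusted p = 0.980). The 95% interval of its log2 fold change, -1.38 to 1.31, holds the -0.60 of Cdk6-202. Cdk6-205, with 20.7% of the gene's signal, was not called (log2 fold change -0.21, adjusted p = 0.561). The share of Cdk6-202 in the gene was 63.5 ± 9.58% and 56.2 ± 4.44%, with overlap (exact permutation test, two-sided, p = 0.3). The smallest p possible is 0.1, so this test could not have reached the threshold and does not show that the shares are alike.

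Cdk4 (chromosome 10, 127063534 to 127067920, plus strand) was at 16.2, 17.6 and 15.7 FPKM with siScrambled and at 18.2, 16.1 and 16.0 FPKM with siSirt7. The groups overlapped, and the 95% interval of the log2 fold change of 0.02 ran from -0.15 to 0.19 (adjusted p = 0.863). Cdk6 made up 41.7%, 42.3% and 46.6% of the 2 kinases together with siScrambled and 32.7%, 33.9% and 37.1% with siSirt7. The kinase sum was 29.2 ± 1.34 and 25.6 ± 1.36 FPKM, and neither the sums nor the shares of the groups overlapped.

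**Figure D3:**
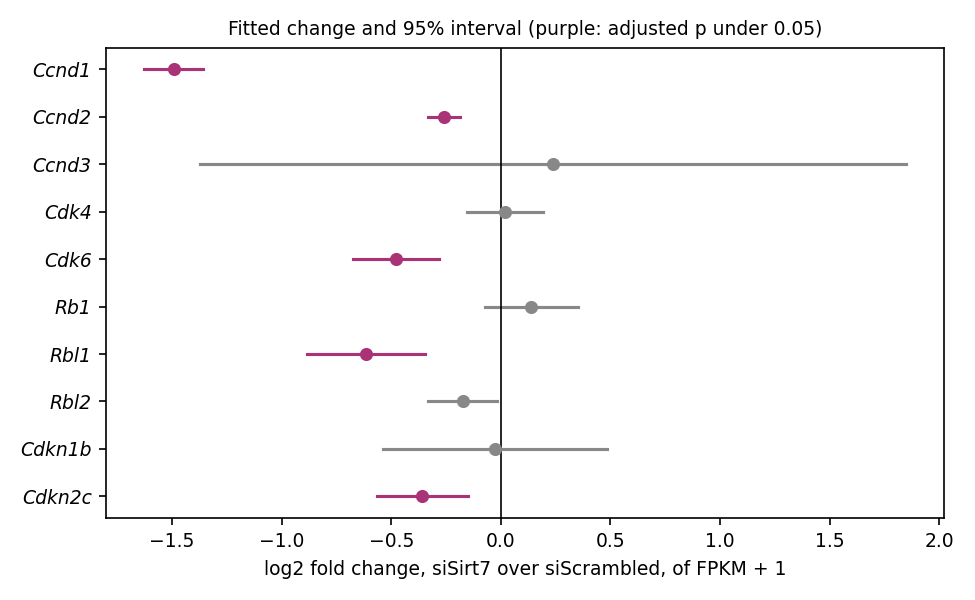
Fitted log2 fold change of each gene, siSirt7 over siScrambled on the FPKM + 1 scale (points), with its 95% interval (lines); purple marks an adjusted p under 0.05. The 5 called genes lie left of 0, from -1.49 for Ccnd1 to -0.26 for Ccnd2, and the interval of Ccnd3 is the widest.

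In the retinoblastoma family, Rbl1 fell, Rbl2 was lower without passing the test, and Rb1 was not called. Rbl1 (chromosome 2, 157145893 to 157204534, minus strand), which encodes p107 and is known as an E2F target itself, was at 3.74, 3.88 and 3.81 FPKM with siScrambled and at 1.89, 1.93 and 2.65 FPKM with siSirt7. The control values were tight and all 3 siSirt7 values lay below them. The mean fell 1.77-fold, from 3.81 ± 0.0702 to 2.16 ± 0.425 FPKM (log2 fold change -0.62, 95% interval -0.88 to -0.35, adjusted p = 0.0105). The gene had 1 listed transcript, of 22 exons.

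The window around the RefSeq start of Rbl1 is shown because it alone among the members' windows holds an E2F word. RefSeq windows were matched for 7 of the 10 genes, 9 windows in all, and those of Ccnd1, Ccnd2 and Rb1 were not matched. The E2F words searched on both strands were TTTCCCGC, TTTCGCGC, TTTGCCGC and TTTGGCGC, and 2.26% of all windows hold at least 1 of them. In the sequence, capitals mark TTTCGCGC, 18 to 11 bases before the start and held by 0.323% of all windows, and a GC box on the other strand further upstream.
Rbl1 start, chr2:157204485-157204784, minus strand: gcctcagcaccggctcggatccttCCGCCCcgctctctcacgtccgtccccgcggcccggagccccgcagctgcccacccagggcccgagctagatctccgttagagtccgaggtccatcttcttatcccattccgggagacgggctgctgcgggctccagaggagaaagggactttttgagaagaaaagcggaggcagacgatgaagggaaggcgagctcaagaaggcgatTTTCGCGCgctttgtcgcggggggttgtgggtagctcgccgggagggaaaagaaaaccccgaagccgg
The listed start of Rbl1-201 lies 22 bases from the RefSeq site. The words TGACGTCA and TAACGTCA (cyclic AMP response element) and TGANTCA (AP-1) were in 0 of the 9 windows, and TTTGAA (a cell cycle homology region) was in that of Rbl2, against 1.79%, 0.244%, 7.81% and 17.9% of all windows. A match describes the letters and is no sign that a factor binds.

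Rbl2 (chromosome 8, 91070057 to 91123844, plus strand), which encodes the p130 of resting cells, was at 14.1, 14.4 and 13.6 FPKM with siScrambled and at 11.4, 12.9 and 12.8 FPKM with siSirt7. Its groups did not overlap, but the difference missed the threshold (log2 fold change -0.17, 95% interval -0.33 to -0.02, adjusted p = 0.0988). Its sum varied far less than its transcripts did. Rbl2-210 was at 8.56, 5.68 and 0 FPKM with siScrambled and at 0 FPKM in all siSirt7 libraries, and Rbl2-208 was at 0, 3.01 and 7.12 FPKM against 6.37, 7.50 and 6.99 FPKM. Within the control group the signal thus lay on either transcript, and neither was called (adjusted p = 0.261 and 0.398).

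Rb1 (chromosome 14, 73183673 to 73325822, minus strand), the retinoblastoma gene, was at 9.77, 10.3 and 10.9 FPKM with siScrambled and at 10.2, 11.6 and 12.7 FPKM with siSirt7. These overlapped, and the log2 fold change was 0.14 with a 95% interval from -0.07 to 0.35 (adjusted p = 0.301). As shares of the family total, Rbl1 went from 13.5 ± 0.08% to 8.27 ± 1.06% and Rb1 from 36.7 ± 1.64% to 44.2 ± 0.78% (SD, n = 3), and the groups did not overlap for either share. The family total of 28.2 ± 0.48 and 26.0 ± 2.35 FPKM did overlap.

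**Figure D4:**
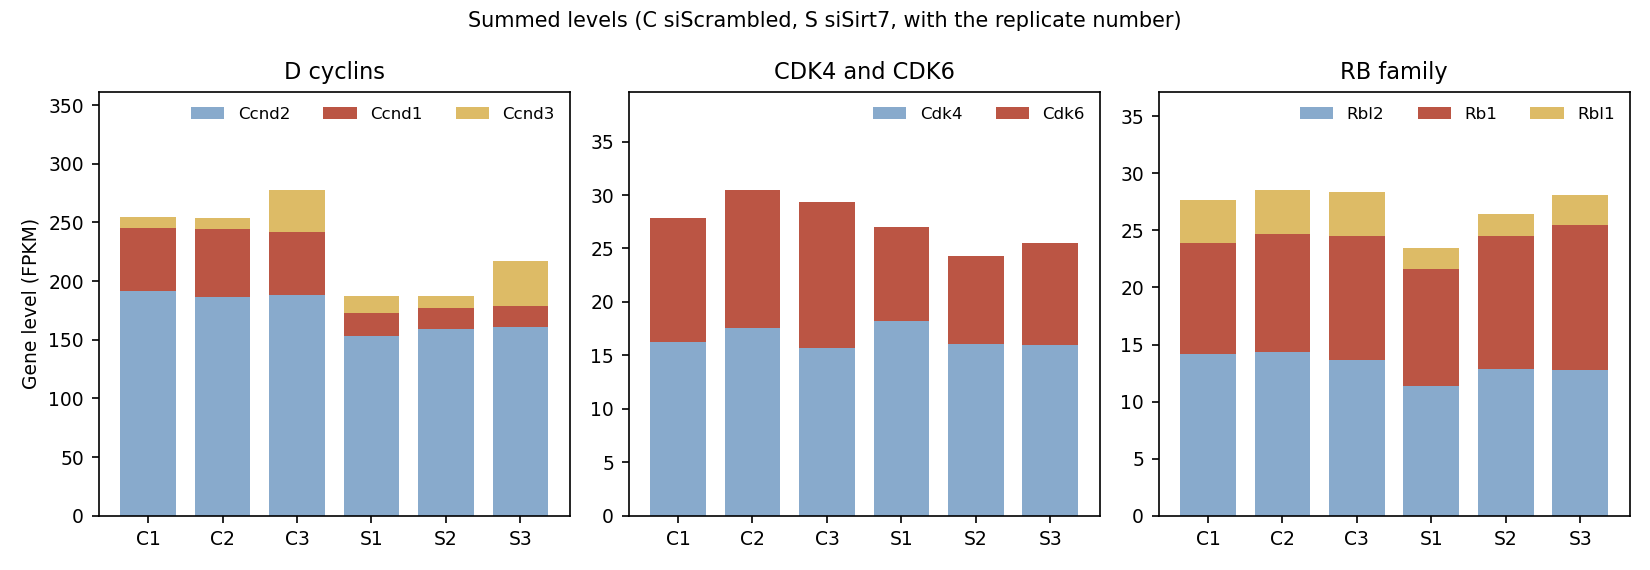
Summed level in FPKM of the D cyclins, of Cdk4 and Cdk6, and of the retinoblastoma family in each library (C is siScrambled and S is siSirt7, with the replicate number), stacked by gene from an axis that starts at 0. Ccnd2 makes up most of the D cyclin bars, the Ccnd1 segment shrinks from at least 53.1 to at most 19.9 FPKM, and the Ccnd3 segment is large in C3 and S3.

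Of the inhibitors, Cdkn2c fell and Cdkn1b was not called. Cdkn2c (chromosome 4, 109660876 to 109667189, minus strand), which encodes the INK4 inhibitor p18, was at 7.40, 8.29 and 6.92 FPKM with siScrambled and at 5.37, 6.10 and 5.47 FPKM with siSirt7. The groups did not overlap, and the mean fell 1.33-fold, from 7.54 ± 0.691 to 5.65 ± 0.397 FPKM (log2 fold change -0.36, 95% interval -0.57 to -0.15, limma adjusted p = 0.0275). This call held without siScrambled replicate 3 or siSirt7 replicate 2. It was lost without siScrambled replicate 1 (adjusted p = 0.0708), siScrambled replicate 2 (0.0771), siSirt7 replicate 1 (0.0781) or siSirt7 replicate 3 (0.0770), and without both libraries numbered 3 (0.0954).

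Its transcripts have the same coding length of 504 bases and start at different sites, and 1 of them was called. Cdkn2c-202, which starts upstream, was at 4.99, 5.42 and 4.88 FPKM with siScrambled and at 3.10, 3.02 and 3.35 FPKM with siSirt7, without overlap (log2 fold change -0.55, adjusted p = 0.0228 among single transcripts). Cdkn2c-201 was at 2.41, 2.87 and 2.05 FPKM against 2.27, 3.08 and 2.12 FPKM, with overlap (log2 fold change 0.02, 95% interval -0.39 to 0.43, adjusted p = 0.969). The share of Cdkn2c-202 was 67.5%, 65.4% and 70.4% against 57.7%, 49.5% and 61.2%. The shares of the groups did not overlap, which gives the smallest p that 3 against 3 libraries allow (exact permutation test, two-sided, p = 0.1, and 0.2 adjusted over the 2 shares tested), so the difference between the transcripts did not reach the threshold and could not have. The 2 RefSeq start windows of the gene are shown for these transcripts, with GC boxes in capitals.
Cdkn2c upstream start, chr4:109666707-109667006, minus strand: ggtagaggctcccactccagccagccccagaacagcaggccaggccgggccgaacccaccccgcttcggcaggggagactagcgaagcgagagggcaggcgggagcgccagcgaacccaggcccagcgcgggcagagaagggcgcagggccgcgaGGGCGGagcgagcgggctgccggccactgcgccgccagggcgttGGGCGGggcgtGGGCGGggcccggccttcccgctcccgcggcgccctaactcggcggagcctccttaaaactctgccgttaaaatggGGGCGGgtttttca
Cdkn2c downstream start, chr4:109665323-109665622, minus strand: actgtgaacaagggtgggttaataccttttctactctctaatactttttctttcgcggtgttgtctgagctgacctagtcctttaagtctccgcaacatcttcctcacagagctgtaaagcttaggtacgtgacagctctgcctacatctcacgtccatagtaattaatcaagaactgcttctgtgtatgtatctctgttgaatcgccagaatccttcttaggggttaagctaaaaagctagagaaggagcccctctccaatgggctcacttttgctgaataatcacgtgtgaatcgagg
The upstream window holds 4 GC boxes and the downstream window 0. The listed start of Cdkn2c-201 coincides with the downstream RefSeq site, whereas that of Cdkn2c-202 lies 433 bases upstream of the other, outside the window shown.

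Cdkn1b (chromosome 6, 134920401 to 134925513, plus strand), the gene of p27, was at 11.4, 9.86 and 18.3 FPKM with siScrambled and at 12.1, 13.0 and 12.3 FPKM with siSirt7. The high control value came from Cdkn1b-201, at 13.5 FPKM in siScrambled replicate 3 and from 4.18 to 6.37 FPKM elsewhere. The log2 fold change was -0.03 with a 95% interval from -0.54 to 0.48 (adjusted p = 0.941). Without siScrambled replicate 3 it was 0.22 (adjusted p = 0.138).

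By mean level with siScrambled the order was Ccnd2, Ccnd1, Ccnd3, Cdk4, Rbl2, Cdkn1b, Cdk6, Rb1, Cdkn2c and Rbl1. With siSirt7 it was Ccnd2, Ccnd3, Ccnd1, Cdk4, Cdkn1b, Rbl2, Rb1, Cdk6, Cdkn2c and Rbl1. Ccnd2, Cdk4, Cdkn2c and Rbl1 kept their places, and the ranges of Ccnd2, Cdkn2c and Rbl1 in each group overlapped no other of the 10 genes. With siScrambled the range of Ccnd1 also stood alone, Ccnd3 spanned those of Cdk4, Rbl2, Cdkn1b, Cdk6 and Rb1, and Cdkn1b spanned or overlapped the same neighbours. With siSirt7 the range of Ccnd3 took in Ccnd1, Cdk4, Cdkn1b, Rbl2 and Rb1, those of Cdkn1b, Rbl2 and Rb1 overlapped each other, and Cdk6 stood alone.

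The genes around this control point were read from 6 lists, which were chosen with earlier results of these data known. The counts of each list are therefore a description only, set beside the shares of all tested genes. These were 12.5% called lower and 12.7% higher, and 18.9% in each direction at an unadjusted p under 0.05. Of 14 tested E2F factors, DP partners, subunits of the MuvB complex and Mybl2, 6 fell and 0 rose (1 higher and 7 lower at an unadjusted p under 0.05), with a median log2 fold change of -0.30. Tfdp2, a DNA-binding partner of E2F, fell from 13.8 ± 1.16 to 7.55 ± 1.32 FPKM and E2f1, an activating E2F, from 6.96 ± 0.26 to 4.78 ± 0.36 FPKM (limma adjusted p = 0.00584 and 0.00670). Lin9 of the MuvB complex fell from 2.11 ± 0.11 to 0.831 ± 0.357 FPKM and Mybl2, which drives genes of the G2 phase, from 1.82 ± 0.19 to 0.778 ± 0.234 FPKM (adjusted p = 0.0137 and 0.0138). Lin9 lost its call without siScrambled replicate 2 (adjusted p = 0.0503), and 4 or 5 of the list were called lower as any 1 library was left out. Read from the most abundant transcript alone, in a fit adjusted over 17414 transcripts, Tfdp2, Lin9 and Mybl2 were not called (adjusted p = 0.157, 0.0595 and 0.0714). The log2 fold changes of Lin9 and Mybl2 were the same in the gene and transcript fits (-0.78 and -0.67). Tfdp1, the more abundant DP gene, was not called (means of 31.2 and 27.8 FPKM, adjusted p = 0.687) and is named here with its values known. Nor was E2f3 called (means of 9.34 and 9.05 FPKM, adjusted p = 0.841), which is also named with its values known.

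Of 14 S-phase genes known as E2F targets, 13 were tested, 11 fell and 0 rose (0 higher and 11 lower at an unadjusted p under 0.05), with a median of -0.62. The helicase subunit Mcm5 fell 2.44-fold, the thymidine kinase Tk1 2.21-fold and the ribonucleotide reductase subunit Rrm2 1.74-fold (adjusted p from 0.000682 to 0.00118). Their levels in the siSirt7 libraries were 2.64 ± 0.31, 2.67 ± 0.11 and 7.09 ± 0.46 FPKM. Mcm5 was not called from its most abundant transcript alone (adjusted p = 0.0919). Cdt1 and Tyms, the 2 tested genes that were not called, are named with their values known and had log2 fold changes of 0.11 and -0.17. Cdc6 was below the level tested.

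The next list held 8 genes, those of cyclin E, cyclin A2, CDK2, the phosphatase Cdc25a and the CDK-activating kinase. Of these, 3 fell and 0 rose (0 higher and 4 lower at an unadjusted p under 0.05), with a median of -0.10. The E cyclins drive CDK2 after the D cyclins have acted, and cyclin A2 follows in S phase. Ccne1 was at 16.0, 14.6 and 15.7 FPKM with siScrambled and at 10.8, 9.75 and 10.1 FPKM with siSirt7, a 1.51-fold fall (adjusted p = 0.00237). Ccna2 fell 2.28-fold and Ccne2 1.45-fold (adjusted p = 0.00026 and 0.0215). The call of Ccne2 was lost without siScrambled replicate 2 (0.0737), siScrambled replicate 3 (0.0695), siSirt7 replicate 1 (0.0535) or siSirt7 replicate 2 (0.0572), and for its most abundant transcript alone (0.690). Cdk2, their kinase, is named with its values known and was not called (means of 5.13 and 4.80 FPKM, adjusted p = 0.663).

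Other CDK inhibitors were read as 1 list of 5 genes. Of 4 tested, 3 fell and 0 rose (0 higher and 3 lower at an unadjusted p under 0.05), with a median of -0.42, and all 3 belong to the INK4 family of Cdkn2c. Cdkn2b, the gene of p15, was at 39.6, 38.6 and 38.8 FPKM with siScrambled and at 29.4, 29.5 and 26.5 FPKM with siSirt7 (adjusted p = 0.00243), which did not overlap. Cdkn2d, the gene of p19, fell 1.58-fold and Cdkn2a, whose locus also encodes ARF, 1.34-fold (adjusted p = 0.0143 and 0.0329). Cdkn2d lost its call without siScrambled replicate 3 (0.0509). Cdkn2a lost it without siScrambled replicate 1 (0.0774) or 3 (0.0952), or without siSirt7 replicate 1 (0.0778), 2 (0.0612) or 3 (0.0909), so 1 call of the list was left without siScrambled replicate 3. Cdkn2d and Cdkn2a were not called from their most abundant transcripts alone (adjusted p = 0.0538 and 0.126). The log2 fold change of Cdkn2d was the same in the gene and transcript fits (-0.55). Cdkn1a, the gene of p21, is named with its values known and was at 106.9 ± 0.54 and 109.6 ± 3.25 FPKM (adjusted p = 0.481).

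Among 9 genes whose products mark D cyclins, p27 or p130 for destruction, 3 fell and 0 rose (0 higher and 4 lower at an unadjusted p under 0.05), with a median of -0.19. Of all tested genes, 12.5% were called lower, and 18.9% were lower at an unadjusted p under 0.05. Cks1b, which helps the ligase SKP2 recognise p27, fell from 19.5 ± 1.63 to 10.3 ± 1.26 FPKM (adjusted p = 0.00254). Ambra1, which directs D cyclins to destruction, fell 1.29-fold and the kinase Gsk3b, which phosphorylates cyclin D1, 1.28-fold (adjusted p = 0.0346 and 0.0435). With siScrambled replicate 1, 2 or 3 or siSirt7 replicate 2 left out, 1 call of the list remained each time. Ambra1 then had an adjusted p of 0.105, 0.0759, 0.0815 and 0.0840, and 0.0829 without siSirt7 replicate 3. Gsk3b had 0.122, 0.109, 0.0720 and 0.0654, and 0.0514 without siSirt7 replicate 1. From the most abundant transcript alone, Ambra1 and Gsk3b were not called (0.264 and 0.209), nor was Ambra1 after quantile normalization (0.0516) or Gsk3b without the trend and robust options (0.0550).

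Of 12 transcription factors known to act on D cyclin genes or Cdkn1b, 2 rose and 2 fell (3 and 3 at an unadjusted p under 0.05), with a median of 0.04. These counts are close to the shares of all tested genes, 12.7% called higher and 12.5% lower, and 18.9% in each direction at an unadjusted p under 0.05. Egr1, an early growth response factor, fell from 27.2 ± 0.149 to 16.7 ± 0.61 FPKM and the AP-1 subunit Jun from 31.5 ± 0.50 to 26.4 ± 1.01 FPKM (adjusted p = 0.000368 and 0.00951). The AP-1 subunit Fosl1 rose from 8.41 ± 0.64 to 16.0 ± 0.65 FPKM and Myc from 9.21 ± 0.80 to 12.3 ± 0.91 FPKM (adjusted p = 0.000682 and 0.0202). Myc lost its call without siScrambled replicate 2 (0.0670), siScrambled replicate 3 (0.0668), siSirt7 replicate 1 (0.0609) or siSirt7 replicate 3 (0.0602), which left 1 riser in the list, and for its most abundant transcript alone (0.0670).

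**Figure D5:**
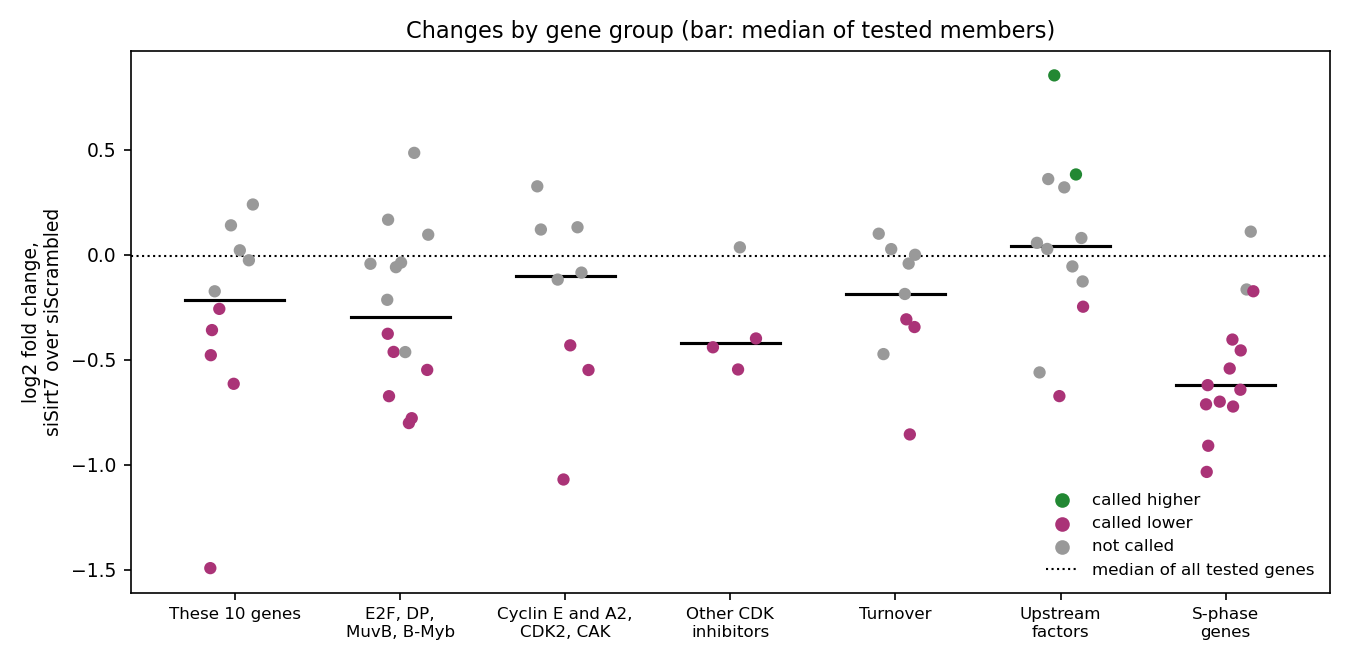
Fitted log2 fold change, siSirt7 over siScrambled, of each tested gene in the 10 described genes and in 6 lists around them, with called genes in purple (lower) and green (higher), group medians as bars and the median of all tested genes as a dotted line. The S-phase genes have the lowest median, -0.62, and only the upstream factors have called genes above 0.

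The 3 genes whose log2 levels followed Ccnd1 most closely over the 6 libraries were Fam198b, Plpp1 and Kif23, a kinesin of cytokinesis, each with Pearson's r of 0.999, among genes averaging 5 FPKM or more. The gap between the groups sets most of this likeness. Their sizes of change differed: Fam198b had a log2 fold change of -0.60, Plpp1 of -0.20 and Kif23 of -1.02, against -1.49 for Ccnd1.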

How the data were processed

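RNA of 6 libraries was profiled after poly(A) mRNA library preparation, per the labels' protocols. HISAT2 and the builds GRCm38 and mm10 are named, per the submitters' processing notes. The deposited values are FPKM per transcript and library, per the file header, for protein-coding transcripts with a group mean of about 0.5 FPKM or more. The sources used here do not name the program or annotation release behind the FPKM, or how reads shared by transcripts were divided. An emptied line of the table was not analysed here. Values of genes with 1 listed transcript were not whole multiples of a read (17.0% to 20.7% within 0.05 of one, against 17.6% to 21.0% after jitter), so depth is unknown.

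Transcripts were summed per gene, and the 10854 genes whose mean reached 1 FPKM were tested on log2(FPKM + 1) with limma 3.58.1 (trend and robust options, R 4.3.3), with Benjamini-Hochberg adjustment. The test was checked on simulated data. Shares, sequences and plots used Python 3.11.15. Sequences are from RefSeq (GRCm38.p6), 3' UTRs from GENCODE M21. The 10 genes and the lists were chosen with earlier results of these data known. Named genes are the 10 genes, Sirt7, up to 4 called genes of each list with the smallest adjusted p, and the 3 most like Ccnd1 (genes with provisional names left out). Of these, 1 gene of the S-phase list is not reported here. Gene spans are those of GENCODE M21. Alternatives were other scalings, filters and pseudocounts, no trend and robust options, a replicate block, single transcripts, and each library, or both libraries numbered 3, left out, the last chosen after seeing the data. Same-numbered libraries were not treated as pairs in the main fit, since the labels do not say that they are. Their deviations from group means correlated at 0.0068, 0.033 and -0.015, which does not settle whether they were paired.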

Additional observations from a re-analysis of the deposited data

How the results depend on the processing

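Of the 10 genes, 0 rose under any alternative run, and the number that fell was 4 or 5, with 4 where a mean of at least 5 FPKM left Rbl1 untested or where Cdkn2c lost its call. Ccnd1, Ccnd2, Cdk6 and Rbl1 remained called wherever tested, with log2 fold changes of -1.54 to -1.45, -0.31 to -0.24, -0.60 to -0.43 and -0.81 to -0.56. Over the named genes, 489 of 551 alternative values kept their direction and side of the threshold, 54 lost the call and 8 changed sign. The sign changed for genes that were never called: Ccnd3 was at -0.95 for its most abundant transcript and ranged from -0.28 to 0.85 as single libraries were left out, Cdk4 ranged from -0.036 to 0.065, and Cdkn1b from -0.20 to 0.22, with 0.23 without both libraries numbered 3. The cause was not tested.

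Single transcripts gave 1493 genes called (780 higher and 729 lower in at least 1 transcript) in place of 2736, and 1251 (648 and 603) were called without both libraries numbered 3, where fewer samples enter. Leaving out 1 library gave 1847 to 2217 genes called, 947 to 1106 higher and 900 to 1111 lower, the lowest number of lower genes without siScrambled replicate 2. In the lists, the E2F genes called lower went from 6 to 3 with a mean of at least 5 FPKM, 1 with single transcripts and 3 without both libraries numbered 3. Other inhibitors and turnover genes each went from 3 to 1 with single transcripts, and turnover genes to 1 without both libraries numbered 3. Upstream factors called higher went from 2 to 1 under both, and those lower to 1 without the pair. As 1 library was left out, these counts were 1 to 3 for inhibitors, 1 or 2 for turnover genes and 1 or 2 for upstream factors called higher. With the replicate number as a block, 1927 genes were called, and Mybl2, Cdkn2a and Ambra1 lost their calls, with adjusted p of 0.0549, 0.0732 and 0.0615. The numbers are not shown to pair the libraries. Without both libraries numbered 3, Lin9, Mybl2, Ccne2, Cdkn2a, Ambra1, Gsk3b, Jun and Myc also lost their calls (adjusted p from 0.0510 to 0.194). No counts were used, so counting error is unknown.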
